A study of Mus musculus with 6 samples.

Results

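The genes of tight, gap and desmosomal junctions were compared between alveolar type II cells of Stat3Δ/Δ mice and of control littermates. Members were taken by gene symbol, as every probe set naming 1 gene that is a claudin (Cldn), connexin (Gja, Gjb or Gjc), numbered Tjp, Dsc, Dsg, Pkp or Marveld gene, or is Ocln, Jup, Dsp, Cgn or F11r. The rule gave 98 probe sets of 55 genes, among 45037 probe sets tested and 18193 genes named by a probe set of their own.

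The study asked how Stat3 influences gene expression in type II cells, the surfactant-producing cells of the alveolus. Stat3Δ/Δ mice carry SP-C-rtTA, (tetO)7CMV-Cre and floxed Stat3 alleles, and doxycycline given to the dams removes exon 21 of Stat3 in cells where the surfactant protein C promoter drives rtTA, that is, in respiratory epithelium from before birth and not in type II cells alone. The source names label the control pools as carrying SP-C-rtTA and (tetO)7CMV-Cre only. The methods instead describe non-deleted littermates that carry either transgene together with floxed Stat3. The sample descriptions name the triple-transgenic line, that of the Stat3Δ/Δ mice, for the controls too. These sources differ, so the control genotype is not settled by them, and groups follow source name and title. All mice were 8 weeks old. Each of 3 Stat3Δ/Δ and 3 control arrays (Affymetrix MOE430) was hybridized with RNA from a pool of 3 mice, isolated directly from purified cells without culture. Values below are log2 of the deposited signal plus 69.9 after quantile normalization, a scale that understates the change of dim genes, and pools are given in the order 1, 2, 3. Levels are compared between arrays for 1 probe set. Brighter and dimmer give the order of signal among the probe sets of a gene, which says nothing of the amount of transcript.

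Tight junctions seal the space between neighbouring epithelial cells. Claudins form the seal and its ion pores, occludin and the other MARVEL proteins join them in the membrane, and the zonula occludens proteins (Tjp) and cingulin tie them to actin. Gap junctions are channels of connexins through which alveolar cells pass calcium signals, and desmosomes join desmosomal cadherins through plakoglobin, plakophilins and desmoplakin to keratin filaments.

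No junction probe set passed the false discovery rate (FDR) of 10% used for a call, against 1 of all 45037 (0.00222%). The smallest adjusted p of a member was 0.456 (limma, Benjamini-Hochberg over all probe sets), and 10 of the 98 had p of 0.05 or less before adjustment. With an unadjusted p of 0.05 or less and a change of at least 1.5-fold, called the unadjusted limits below, and without the FDR, 3 members lay higher (3.06%, against 4.14% of all probe sets) and 6 lay lower (6.12%, against 4.22%). They were probe sets of Cldn1, Ocln and Dsp on the higher side, and of Cldn4, Cldn10, Marveld3, Gja3 and Gja1, with 2 for the last, on the lower side. These shares are near those of the whole array, and are given as a description. With arrays centred on their medians in place of quantile normalization, 2 lay higher and 11 lower. The 6 became 3 when pool 1 of either group or control pool 2 was left out, and the 3 became 5 when control pool 3 was.

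Over all members, and with no test of the list, the log2 fold change was below 0 for 66 of the 98 probe sets (67.3%, against 51.7% of all), and its median was -0.14, against -0.02 over all probe sets. Median differences of the 3 Stat3Δ/Δ pools from the control mean were -0.29, -0.19 and -0.0060, so that pool 3 lay at the control level. Leaving out 1 pool moved the median to between -0.25 (Stat3Δ/Δ pool 3 left out) and -0.043 (control pool 1 left out), and it was -0.046 and -0.065 when Stat3Δ/Δ pools 1 and 2 were left out in turn and -0.20 when control pool 3 was. All 3 Stat3Δ/Δ arrays lay below all 3 control arrays for 15 members (15.3%, against 7.66% of all probe sets) and above them for 5 (5.10%, against 5.99%). Of the 15, 13 were among the 59 members in the upper part of the signal range, above the median of all probe sets, where the share among all probe sets was 8.97%. With 1 probe set per gene, the one with the highest signal, 39 of 55 genes (70.9%) lay below 0 with a median of -0.14, beside 59.3% and a median of -0.085 over all 18193 genes, a smaller gap than over all probe sets. Taken this way, all Stat3Δ/Δ arrays lay below all controls for 8 genes (14.5%, against 10.2% of all genes), also a smaller gap. They lay above them for 2 (3.64%, against 4.23%). In RNA of bulk cell pools, fewer cells of a type and less RNA per cell cannot be told apart.

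**Figure D1:**
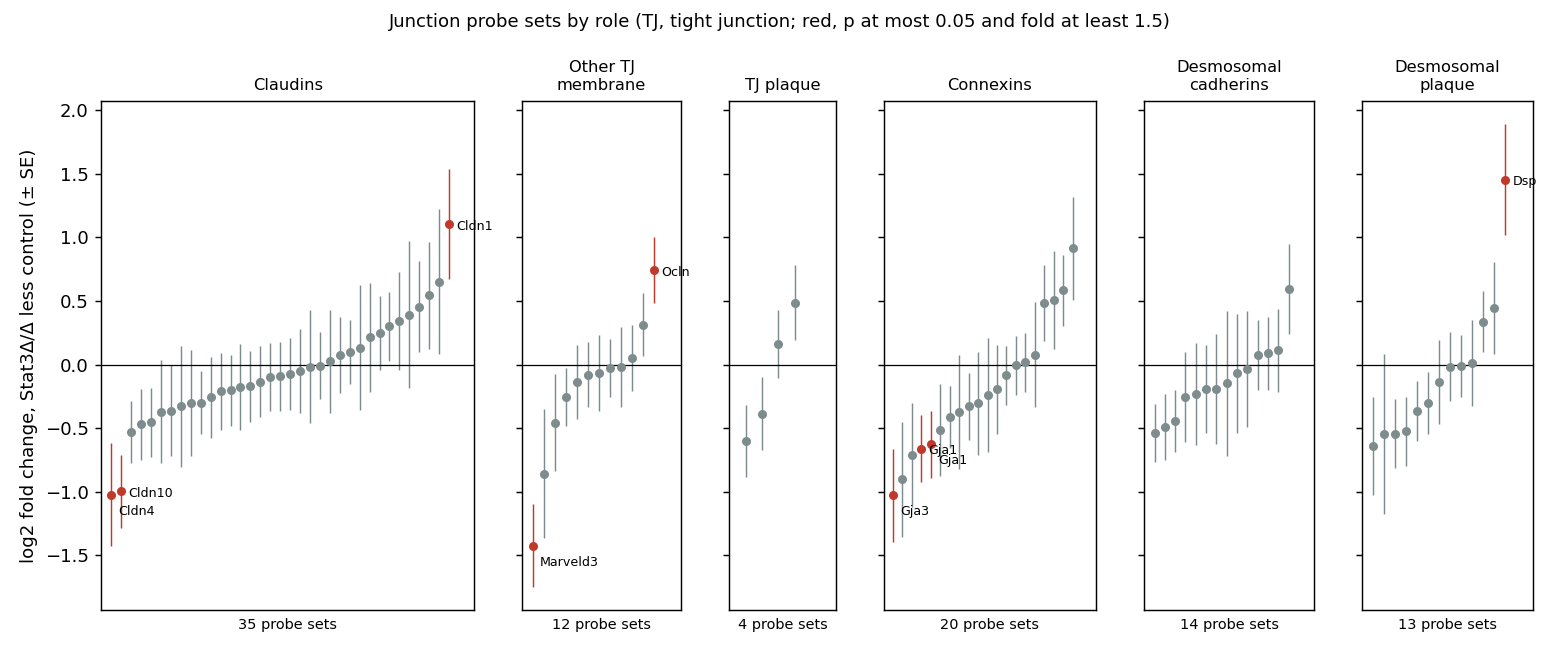
Log2 fold change (Stat3Δ/Δ less control, with its standard error from limma) of all 98 junction probe sets, sorted within each role, with 1 panel for each role. Points in red are within the unadjusted limits (p of 0.05 or less, 1.5-fold or more), and none of these passed the FDR. Most points lie below 0 in every role except the tight junction plaque, with 2 below and 2 above.

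Claudins gave 35 probe sets of 24 genes, of which 22 lay below 0 and 13 above, with a median of -0.09. Cldn4, a claudin of lung epithelium that is known to rise in injured alveoli, gave 13.11, 13.08 and 14.01 in Stat3Δ/Δ pools against 14.91, 14.66 and 13.70 in controls. Stat3Δ/Δ pools 1 and 2 lay below every control, whereas pool 3 lay above control pool 3, so the groups overlapped. The log2 fold change was -1.02 (standard error, SE, 0.40; adjusted p = 0.561, limma). It fell short of the unadjusted limits, at -0.77 to -0.90, when Stat3Δ/Δ pool 1 or 2 or control pool 1 or 2 was left out. Cldn3, its neighbour on the chromosome and with Cldn18 a main claudin of type II cells, had 4 probe sets with log2 fold changes of -0.17 to 0.07. The brightest of them gave 15.28, 15.26 and 15.82 against 15.83, 15.39 and 15.54, with fully overlapping groups (-0.13, SE 0.28, adjusted p = 0.923).

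The promoter windows of Cldn4, Cldn3 and Cldn12 are shown because Cldn4 and Cldn3 lie side by side with different fold changes, and because Cldn12 is the claudin that has both a probe set lower on every Stat3Δ/Δ array and a STAT-type match. Each is 300 bases, from 250 before to 50 after the RefSeq start (GRCm38.p6), 5′ to 3′ on the strand of the gene. Capitals mark a STAT-type element (TTCNNNGAA) or a GC box (GGGCGG, or CCGCCC when on the other strand). Cldn4 is at chr5:134946885-134947184 on the minus strand, Cldn3 at chr5:134985964-134986263 on the plus strand and Cldn12 at chr5:5514800-5515099 on the minus strand.
Cldn4: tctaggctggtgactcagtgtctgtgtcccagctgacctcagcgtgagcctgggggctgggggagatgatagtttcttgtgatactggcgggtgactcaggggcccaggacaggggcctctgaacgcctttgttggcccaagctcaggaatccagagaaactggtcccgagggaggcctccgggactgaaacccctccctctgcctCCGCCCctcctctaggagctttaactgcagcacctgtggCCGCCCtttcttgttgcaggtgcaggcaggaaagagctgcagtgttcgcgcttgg
Cldn3: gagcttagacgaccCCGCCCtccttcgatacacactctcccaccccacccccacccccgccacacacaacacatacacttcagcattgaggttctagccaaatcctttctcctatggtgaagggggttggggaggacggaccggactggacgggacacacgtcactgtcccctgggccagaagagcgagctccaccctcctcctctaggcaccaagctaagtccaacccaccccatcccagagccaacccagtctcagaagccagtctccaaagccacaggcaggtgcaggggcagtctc
Cldn12: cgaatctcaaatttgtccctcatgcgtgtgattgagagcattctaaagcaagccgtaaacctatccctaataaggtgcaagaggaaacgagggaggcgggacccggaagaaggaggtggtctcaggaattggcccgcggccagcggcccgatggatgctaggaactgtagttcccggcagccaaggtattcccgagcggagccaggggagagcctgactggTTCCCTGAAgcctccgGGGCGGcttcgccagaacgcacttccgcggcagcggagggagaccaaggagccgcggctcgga
Cldn4 held 2 GC boxes and no STAT-type element, and Cldn3 held 1 GC box and no STAT-type element. Cldn12 held 1 GC box and TTCCCTGAA, which begins 29 bases before this start; 3 starts are listed for the gene. Windows were given for 39 of the 55 genes, 55 windows in all. A STAT-type element was present in 4 of these 55 (7.27%, for Cldn7, Cldn12 and Cldn14), against 8.30% of all 32851 promoter windows. A GC box was present in 29 (52.7%, against 35.7%), and the sterol element TCACNCCAC in 0 of 55 (against 1.24%). Both strands were searched, a STAT-type element and a GC box cannot share bases by their letters, and a match is a description of the letters only.

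Cldn10, a pore-forming claudin with cation- and anion-selective isoforms, had 1 probe set and gave 11.13, 11.40 and 11.80 in Stat3Δ/Δ pools against 12.14, 12.70 and 12.47 in controls. Every Stat3Δ/Δ array lay below every control array. Its log2 fold change was -0.997 (SE 0.29, adjusted p = 0.493, limma), and -0.85 to -1.17 with 1 pool left out. Cldn12, a claudin linked to calcium permeability, gave 12.24, 12.37 and 12.51 against 13.09, 12.80 and 12.83 for its brighter probe set, without overlap and at a fold under 1.5 (-0.53, SE 0.24, adjusted p = 0.605). It was singled out after its values were seen, and its other probe set gave -0.30.

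The higher claudin was Cldn1, a barrier-forming claudin of skin and airway, with 4 probe sets of -0.09 to 1.10. One of the dimmer ones, 1450014_at, gave 8.98, 8.92 and 8.99 against 8.66, 6.87 and 8.05, and all Stat3Δ/Δ arrays lay above all controls. Its log2 fold change was 1.10 (SE 0.43, adjusted p = 0.560, limma). It fell short of the unadjusted limits when any 1 Stat3Δ/Δ pool was left out (1.09 to 1.12) and when control pool 2 was (0.61), and it gave 0.57 at a pseudocount of the median signal. The brightest Cldn1 probe set, 1437932_a_at, gave 9.74, 10.20 and 8.55 against 8.79, 9.20 and 8.88, with pool 3 of Stat3Δ/Δ lowest of all (0.54, SE 0.42, adjusted p = 0.756). It gave 1.02 and came within the unadjusted limits when that pool was left out, 0.19 when Stat3Δ/Δ pool 2 was left out, and 1.09, also within them, over the 3 arrays whose titles start with the same number. Cldn1 and Cldn4 are, with Gja1 and Pkp2, in the list of changed genes that was published from these arrays, so their direction here is not independent evidence.

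Cldn18, whose lung isoform is a defining claudin of alveolar epithelium, gave 14.67, 14.54 and 14.77 against 15.02, 14.56 and 14.42, and the groups overlapped (-0.01, SE 0.26, adjusted p = 0.996). Its other probe set gave 13.69, 13.65 and 13.23 against 12.50, 12.96 and 13.75 (0.46, SE 0.36). Cldn7, which is found along the lateral membrane, gave 13.30, 12.99 and 14.07 against 13.54, 13.68 and 13.29 (-0.05, SE 0.33, adjusted p = 0.981). As for Cldn4 and Cldn3, pool 3 was the highest of the Stat3Δ/Δ arrays for Cldn7. The remaining claudins ranged from -0.47 (Cldn8) to 0.65 (Cldn22), each with overlapping groups, and Cldn5, the endothelial claudin, and Cldn15, which is also expressed by mesothelium, gave -0.26 and -0.45.

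**Figure D2:**
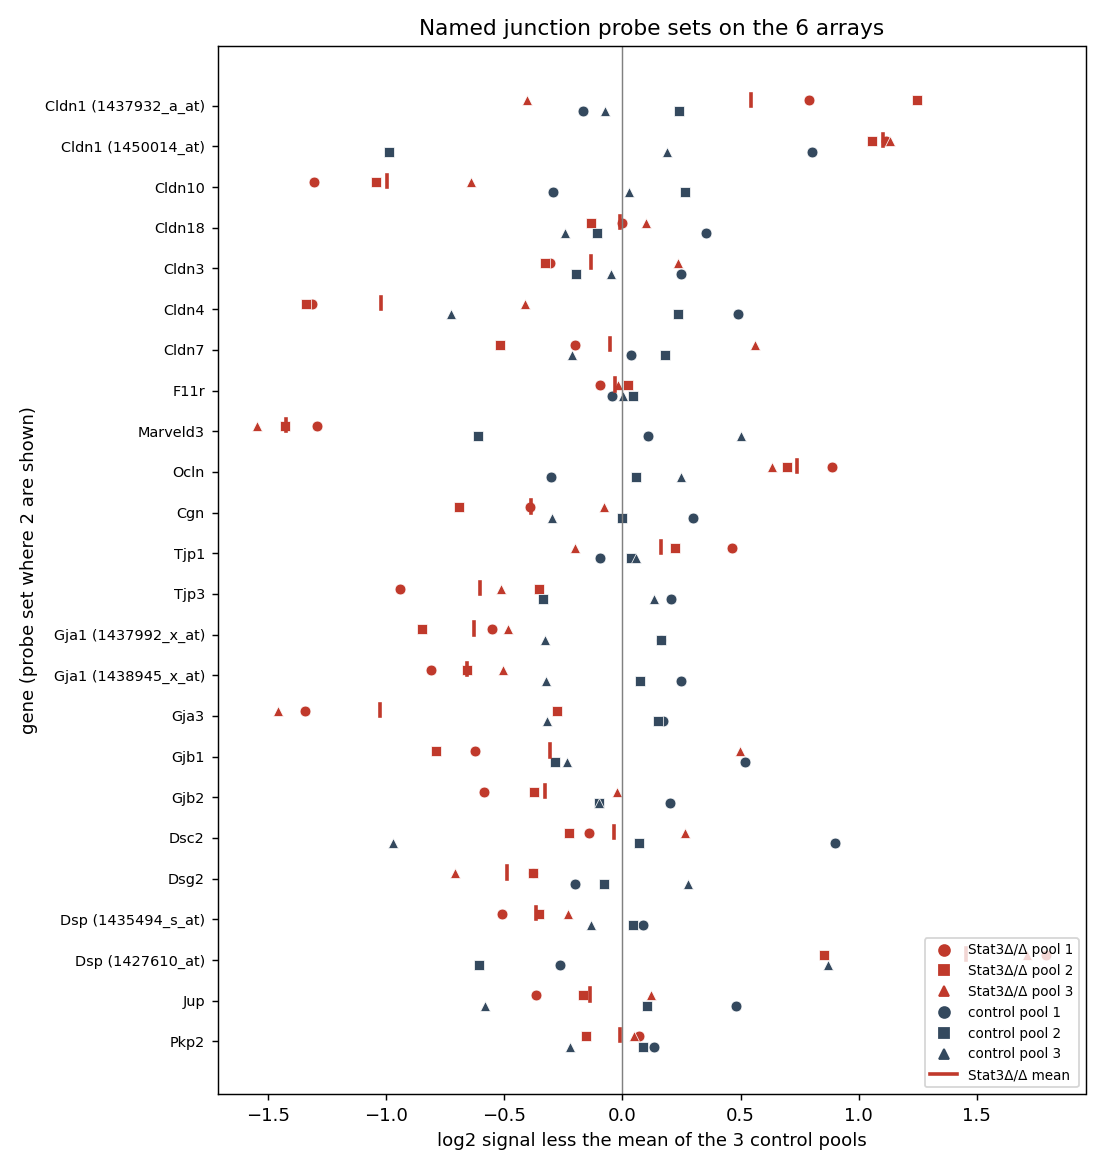
Log2 signal of the 24 named junction probe sets (21 genes) on each of the 6 arrays, less the mean of the 3 control pools of that probe set, with red symbols for Stat3Δ/Δ pools, dark symbols for control pools and a red bar for the Stat3Δ/Δ mean. On all Stat3Δ/Δ arrays, Cldn10, Marveld3, Tjp3, Gja1 and the brightest Dsg2 and Dsp probe sets lie to the left of every control pool. Ocln and Cldn1 1450014_at lie to the right of every control pool, and F11r spans less than the others.

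Among the other membrane proteins of the tight junction, 5 genes had 12 probe sets, 9 below 0 and 3 above, with a median of -0.07. Ocln (occludin) gave 13.14, 12.95 and 12.89 in Stat3Δ/Δ pools against 11.95, 12.31 and 12.50 in controls. All Stat3Δ/Δ arrays lay above all controls. The log2 fold change was 0.74 (SE 0.26, adjusted p = 0.529, limma). It fell short of the unadjusted limits when Stat3Δ/Δ pool 1 (0.67) or control pool 1 (0.58) was left out. The other Ocln probe set gave 12.28, 12.25 and 11.83 against 11.79, 11.87 and 11.74, a smaller difference of the same sign (0.31, SE 0.25, adjusted p = 0.765) with Stat3Δ/Δ pool 3 inside the control range. Ocln lay higher where Cldn4 lay lower, and its first promoter window, at chr13:100552669-100552968 on the minus strand, is shown beside that of Cldn4 for comparison.
Ocln: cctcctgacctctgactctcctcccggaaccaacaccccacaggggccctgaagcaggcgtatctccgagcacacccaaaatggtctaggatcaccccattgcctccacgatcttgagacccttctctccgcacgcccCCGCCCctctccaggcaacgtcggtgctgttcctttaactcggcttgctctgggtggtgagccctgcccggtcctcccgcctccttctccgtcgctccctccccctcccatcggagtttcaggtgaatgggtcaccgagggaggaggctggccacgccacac
It held 1 GC box, marked in capitals, and no STAT-type element.

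F11r (junctional adhesion molecule A), which recruits polarity proteins to the junction, was the steadiest of the named genes, at 13.63, 13.74 and 13.70 against 13.68, 13.76 and 13.72 (-0.03, SE 0.23, adjusted p = 0.985). Marveld2 (tricellulin), which closes the corners where 3 cells meet and is the chromosomal neighbour of Ocln, gave 0.05 (SE 0.26). Marveld3, a MARVEL protein of the bicellular junction, had 3 probe sets that differed from one another. The dimmest, 1444809_at, gave 6.95, 6.82 and 6.70 against 8.36, 7.63 and 8.75, below every control on every Stat3Δ/Δ array. Its log2 fold change of -1.42 (SE 0.33, adjusted p = 0.456, limma) had the smallest p of the members. The deposited Stat3Δ/Δ signals, 63.2, 43.2 and 36.9, were all under the pseudocount of 69.9, and the size of the fold depends on it, with -0.61 at a pseudocount of the median signal and -2.41 at none. The brighter Marveld3 probe sets gave -0.46 and -0.02 with overlapping groups. Marveld1 had 4 probe sets, all below 0, from -0.86 to -0.08.

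In the cytoplasmic plaque of the tight junction, Tjp1 (ZO-1) and Tjp3 (ZO-3) differed in sign. Tjp1, the main scaffold that claudins and occludin bind, gave 13.99, 13.75 and 13.33 against 13.43, 13.57 and 13.59 (0.16, SE 0.27, adjusted p = 0.898), with overlap, and -0.04 when arrays were centred on their medians. Tjp3 gave 10.63, 11.21 and 11.06 against 11.77, 11.23 and 11.70, with all Stat3Δ/Δ arrays below all controls, though pool 2 lay next to control pool 2. Its log2 fold change was -0.60 (SE 0.28, adjusted p = 0.619, limma). Cgn (cingulin) gave 11.70, 11.40 and 12.02 against 12.39, 12.09 and 11.80 for the brighter probe set (-0.39, SE 0.28) and 0.49 for a dim one.

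Counted by probe set, connexins were the group with the lowest median, -0.27 over 20 probe sets of 11 genes, of which 14 lay below 0 and 6 above. Groups were not ranked with 1 probe set per gene, where the order can differ. Gja1 (connexin 43), the broadly expressed connexin of alveolar type I and type II cells, had 6 probe sets, 5 below 0. The brightest, 1437992_x_at, gave 14.78, 14.48 and 14.84 in Stat3Δ/Δ pools against 15.49, 15.49 and 14.998 in controls. Another, 1438945_x_at, gave 13.61, 13.76 and 13.91 against 14.67, 14.50 and 14.10. On both, every Stat3Δ/Δ array lay below every control, and control pool 3 was the nearest. The log2 fold changes were -0.63 (SE 0.27, adjusted p = 0.582) and -0.66 (SE 0.26, adjusted p = 0.563, limma). The suffix _x_at marks probe sets whose probes can match other sequences as well, but 1415800_at, without it, also lay lower on every array (-0.41, SE 0.24, adjusted p = 0.692). With 1 pool left out, the first probe set stayed within the unadjusted limits only when that pool was control pool 3 (-0.79), and gave -0.53 to -0.69 when it was any of the others. The second stayed within them when pool 3 of Stat3Δ/Δ (-0.73) or of the controls (-0.82) was left out, and gave -0.53 to -0.66 otherwise.

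One Gja1 probe set, 1415801_at, went the other way, with 11.49, 10.58 and 11.29 against 9.68, 9.96 and 10.99 (0.91, SE 0.41, adjusted p = 0.601, limma). Control pool 3 overlapped the Stat3Δ/Δ values. Where the probes of each set lie on the transcript was not analysed here. The promoter window of Gja1 held none of the motifs searched.

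Gjb6 (connexin 30), the connexin encoded beside Gjb2, lay higher on all Stat3Δ/Δ arrays, with 12.52, 13.14 and 13.24 against 12.39, 12.29 and 12.48. Its log2 fold change of 0.58 (SE 0.28, adjusted p = 0.624, limma) was just under the fold of 1.5, and it is given after its values were seen. Gjb2 (connexin 26), which lies between Gjb6 and Gja3 on the chromosome, gave 10.64, 10.86 and 11.21 against 11.43, 11.13 and 11.13 (-0.33, SE 0.26, adjusted p = 0.768). Stat3Δ/Δ pool 3 lay inside the control range for Gjb2. Gjb1 (connexin 32), known from type II cells, gave 10.35, 10.18 and 11.47 against 11.49, 10.69 and 10.74 (-0.31, SE 0.40, adjusted p = 0.866), and again only pools 1 and 2 lay below the controls.

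Gja3, best known from the lens, was among the dim members. Its probe set 1422339_at gave 6.90, 7.97 and 6.79 against 8.42, 8.40 and 7.93 (-1.03, SE 0.36, adjusted p = 0.532, limma), with pool 2 inside the control range, and its other probe set gave 0.02. It fell short of the unadjusted limits, at -0.81 to -0.96, when Stat3Δ/Δ pool 1 or 3 or control pool 1 or 2 was left out, and gave -0.44 at a pseudocount of the median signal and -1.71 at none. The remaining connexins ranged from -0.90 (Gjb5) to 0.51 (Gja10).

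Desmosomal cadherins had 14 probe sets of 6 genes, 10 below 0 and 4 above, with a median of -0.17. Dsg2 (desmoglein 2), the desmoglein of simple epithelia, had 6 probe sets. The brightest, 1439476_at, gave 11.37, 11.37 and 11.04 against 11.55, 11.67 and 12.03, and 1449740_s_at gave 10.47, 10.48 and 10.16 against 10.69, 10.90 and 10.85. Both lay lower on every Stat3Δ/Δ array, at a fold under 1.5 (-0.49, SE 0.26, adjusted p = 0.659, and -0.44, SE 0.24, adjusted p = 0.668, limma). The other four gave -0.26 to 0.09. Dsc2 (desmocollin 2), its partner, was dim and variable, at 7.36, 7.28 and 7.77 against 8.41, 7.58 and 6.54 (-0.04, SE 0.45, adjusted p = 0.991). The epidermal members Dsc1, Dsc3, Dsg1a and Dsg1b were dim and ranged from -0.54 to 0.60.

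Desmosomal plaque genes gave 13 probe sets of 6 genes, 9 below 0 and 4 above, with a median of -0.14. Dsp (desmoplakin), which anchors keratin filaments, had 3 probe sets that disagreed. The brightest, 1435494_s_at, gave 12.96, 13.11 and 13.24 against 13.55, 13.51 and 13.34, lower on every Stat3Δ/Δ array (-0.36, SE 0.24, adjusted p = 0.717). The next, 1435493_at, also lay lower on every array (-0.55, SE 0.27, adjusted p = 0.639). The dimmest, 1427610_at, gave 10.41, 9.47 and 10.33 against 8.36, 8.01 and 9.49, and Stat3Δ/Δ pool 2 lay just under control pool 3. Its log2 fold change of 1.45 was the highest of the members (SE 0.44, adjusted p = 0.501, limma).

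Jup (plakoglobin), shared by desmosomes and adherens junctions, gave 11.98, 12.18 and 12.47 against 12.83, 12.45 and 11.77 (-0.14, SE 0.33, adjusted p = 0.938). Pkp2 (plakophilin 2), the plakophilin of simple epithelia, gave 13.26, 13.03 and 13.24 against 13.32, 13.28 and 12.97 for its brightest probe set (-0.01, SE 0.24, adjusted p = 0.996). Its 4 probe sets ranged from -0.64 to 0.44, and 1429183_at lay higher on every Stat3Δ/Δ array (0.34, SE 0.24). Pkp4 (p0071), a relative of the plakophilins found in both desmosomes and adherens junctions, had 2 probe sets, -0.30 and -0.53, both lower on every Stat3Δ/Δ array and neither past the FDR. Pkp1 and Pkp3 ranged from -0.55 to 0.01.

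**Figure D3:**
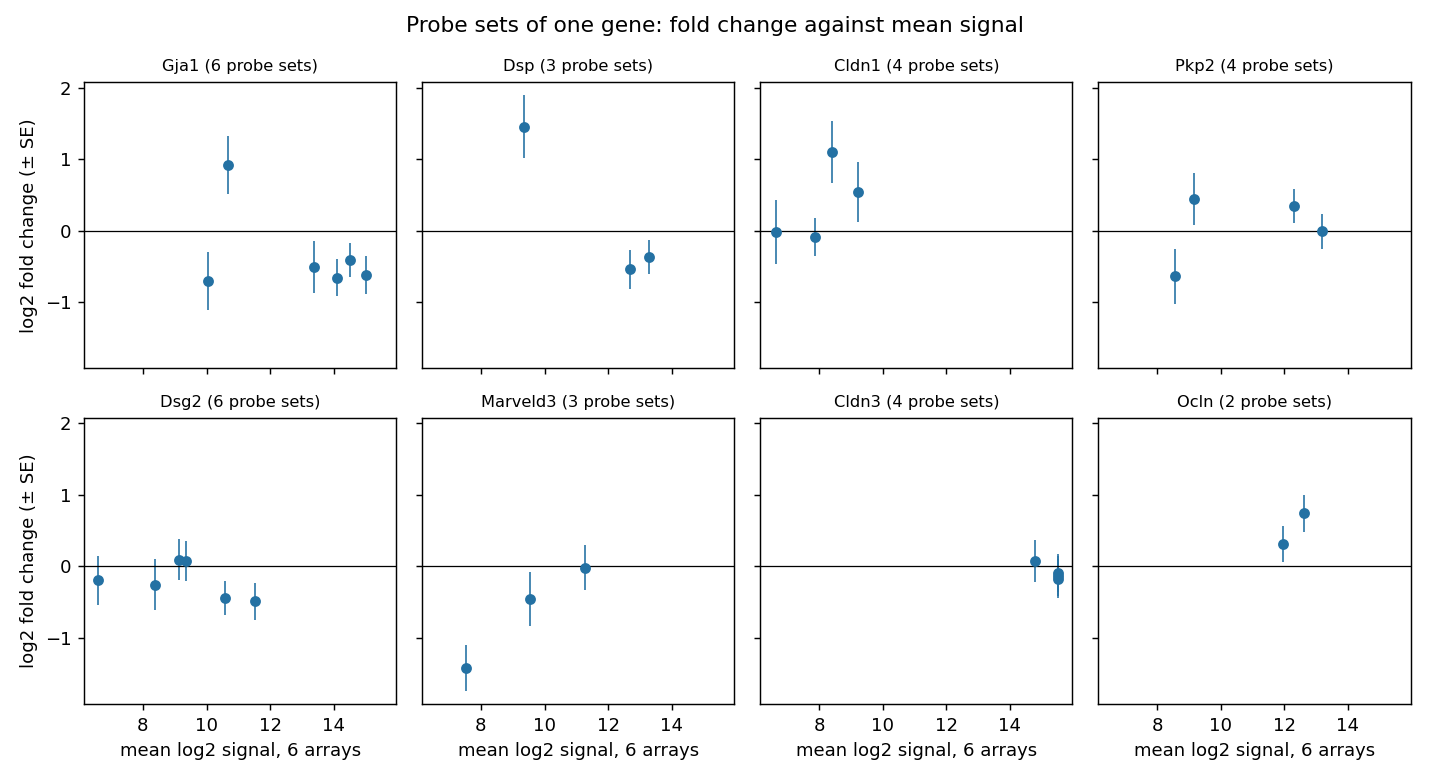
Log2 fold change (Stat3Δ/Δ less control, with its standard error) against the mean log2 signal over the 6 arrays, with 1 point for each probe set of 8 junction genes. For Gja1 and Dsp the bright probe sets lie below 0 while 1 dimmer probe set lies near 0.91 and 1.45, the 3 Marveld3 values run from -1.42 to -0.02, and the 4 Cldn3 values stay between -0.17 and 0.07.

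Of the 55 genes, 25 had more than 1 probe set. All their probe sets lay below 0 for 7 of these genes, all above 0 for 2 and on both sides of 0 for 16. For Gja1, Dsp, Cldn1, Pkp2 and Marveld3, the direction or size of a gene's difference therefore depended on the probe set.

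Titles of Stat3Δ/Δ pools 1 and 2 and of control pool 3 start with the same number, whose meaning the sources used here do not state. Over these 3 arrays alone, Cldn10 gave -1.20, Marveld3 1444809_at -1.86, Cldn1 1450014_at 0.90, Ocln 0.55 and Cldn4 -0.60. The 2 Gja1 probe sets gave -0.37 and -0.41, Gja3 -0.49 and Dsp 1427610_at 0.45. All 9 kept their sign, and the last fell furthest, from 1.45. The median of the 98 members was -0.10 there, against 0.0013 over all probe sets. Titles of control pools 1 and 2 share a different number, and Stat3Δ/Δ pool 3 has its own. On those arrays number and group cannot be told apart.

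**Figure D4:**
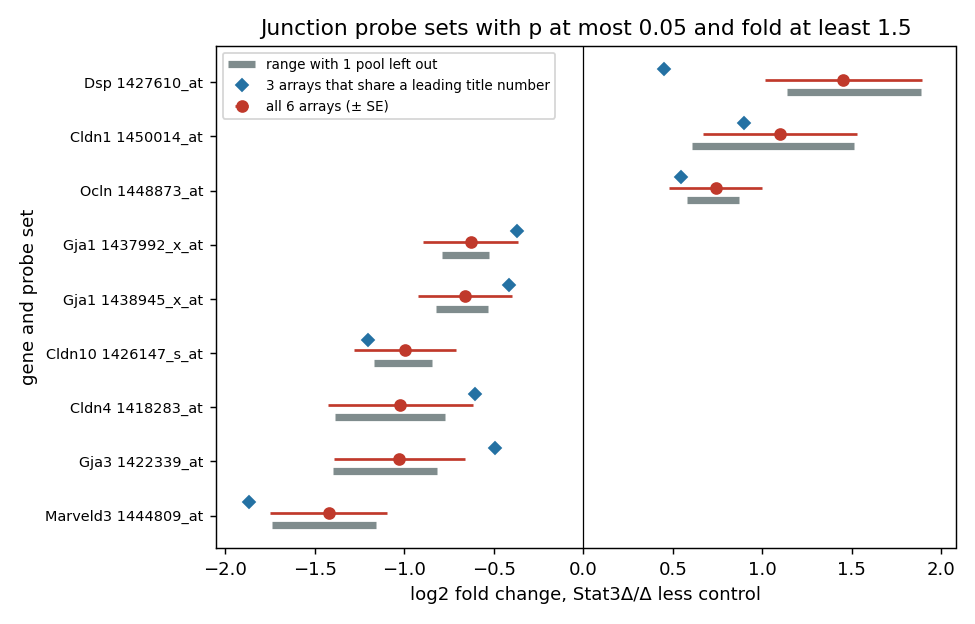
Log2 fold change of the 9 junction probe sets within the unadjusted limits, over all 6 arrays (red, with standard error), its range when 1 pool was left out (grey) and its value over the 3 arrays whose titles start with the same number (blue). All values stay on their side of 0, and the blue value of Dsp 1427610_at, 0.45, lies far below its red one.

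Related junction genes outside these families were counted in lists of their own, without a test of any list, and the counts within the unadjusted limits stand beside 4.14% higher and 4.22% lower over all probe sets. No probe set of these lists passed the FDR. Of 55 adherens junction probe sets (22 genes, among them cadherins, catenins and nectins), 6 lay higher (10.9%) and 2 lower (3.64%), with a median of 0.10, or -0.13 over the brightest probe set of each gene. Cdh1 (E-cadherin), to which the catenins bind, gave -0.23 (SE 0.25, adjusted p = 0.829) and Ctnnb1 (β-catenin) -0.10. Of 82 probe sets of polarity and adaptor genes (30 genes), 7 lay higher (8.54%) and 0 lower, with a median of 0.14, or 0.018 over the brightest probe set of each gene. Mpp5 (Pals1), which links Crumbs to Patj at the tight junction, was above every control array (1.05, SE 0.35, adjusted p = 0.522, limma), while Prkcz gave -0.44 and Crb3 -0.48. The paper lists Mpp5 among its increased genes from these arrays, so its direction here is not independent evidence. Of 22 probe sets of immunoglobulin-like and other adhesion molecules, 2 lay higher (9.09%) and 0 lower, among them Clmp, an adhesion molecule related to Cxadr (1.40, SE 0.43, adjusted p = 0.501). Of 25 probe sets of keratins and plakins 1 lay higher (4.0%) and 0 lower, and Krt8 and Krt18, the keratins that desmosomes anchor in simple epithelium, gave -0.22 and -0.05. None of 5 pannexin probe sets lay within the limits in either direction.

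The targeted gene, Stat3, had 4 probe sets with log2 fold changes of -0.80 to 0.60, 2 of them lower on every Stat3Δ/Δ array. None of the 4 passed the FDR (adjusted p of 0.501 to 0.984, limma). Type II cell markers were bright in both groups (12 of 14 measured, summed signal 734332 to 990226 in Stat3Δ/Δ and 899375 to 987106 in controls), with a median log2 fold change of -0.05 over the brightest probe set of each. Over all 23 of their probe sets the median was -0.15, and 17 lay below 0 (73.9%, against 51.7% of all probe sets). Marker lists of other cells differed in level between the arrays, with no list tested and ranges of summed signal that overlapped between groups for all those given here except neutrophils. The counts that follow use the brightest probe set of each gene. Over all 18193 genes taken this way, 5.55% lay lower within the unadjusted limits and 2.15% higher. Ciliated markers (17 of 19) summed to 68402 to 95811 against 87774 to 141298, and 10 lay lower within the unadjusted limits. Airway secretory and basal markers (13 of 14) summed to 464576 to 638759 against 618915 to 726095, with 4 lower. Mesothelial markers (10 of 10) summed to 28005 to 44031 against 43280 to 58934, with 5 lower, and fibroblast markers (17 of 17) to 15754 to 27340 against 26116 to 52008, with 4 lower. Macrophage markers (14 of 20) summed to 243366 to 314399 against 238684 to 250552, with 3 higher, and neutrophil markers (11 of 14) to 32530 to 38293 against 20519 to 25796, with 4 higher. Over the 3 arrays whose titles start with the same number, the median log2 fold change of the brightest probe sets was 0.078 for fibroblast markers, against -0.69 over all arrays, and 0.12 for neutrophil markers, against 0.48. For mesothelial markers it was -0.98 there, against -0.72, and for ciliated markers -0.51, against -0.75. Airway secretory and basal markers gave -0.22, against -0.51, and macrophage markers 0.32, against 0.39. Cldn15 is in the mesothelial list and Cldn5 in the endothelial one, and airway and mesothelial cells have tight junctions and desmosomes of their own. The log2 ratio of 3′ to 5′ control signals was 0.39 ± 0.046 against 0.64 ± 0.17 for Actb and -0.41 ± 0.099 against 0.020 ± 0.26 for Gapdh (SD, n = 3 each, both p = 0.1 in a two-sided exact permutation test, the smallest p that 3 against 3 allows). The part of these markers and ratios in the junction values was not tested.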

How the data were processed

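RNA of purified alveolar type II cells was measured on 6 MOE430 arrays, and pools were grouped by source name and title. Deposited signal intensities come from MAS5, according to the submitters' processing notes, and the authors scaled each array to one trimmed mean. The RMA values on which the published tests rest were not used here, and detection calls were not analysed. Of 45101 probe sets, 64 controls were left out and 45037 tested. A pseudocount of 69.9 (the 20th percentile of signal) was added before taking log2, and quantile normalization followed. Groups were compared with limma 3.58.1 (R 4.3.3), and Benjamini-Hochberg adjustment covered every tested probe set. Calls needed an FDR of 10% or less in addition to the unadjusted limits, which are a p of 0.05 or less and a change of 1.5-fold or more. The methods describe the pools of each group as independent, and precision is limited by having 3 arrays in each.

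Named probe sets were the brightest of each gene in a list of 18 lung junction genes and in the 4 junction genes of the published list, those within the unadjusted limits, and those whose groups do not overlap at a change of 1.5-fold or more. Any other probe set or gene singled out was chosen after its values were seen. Members and lists were chosen with earlier results of these data known. All 55 gene symbols matched RefSeq by Entrez ID, and promoters are those of RefSeq (GRCm38.p6). Alternatives changed the pseudocount, normalization, filter, variance model, test, array weights, blocks, probe set choice and pools left out. The fit was tested on simulated data with 200 changed probe sets. Python 3.11.15 with matplotlib 3.10.9, pandas 2.3.3, scipy 1.17.1 and numpy 2.4.6 made the tables and plots.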

Additional observations from a re-analysis of the deposited data

How the results depend on the processing

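No junction probe set passed the FDR under any of the 18 alternatives run. The 3 higher probe sets within the unadjusted limits became 1 with the methods' t-test and 1 with a single probe set per gene, and 2 to 5 with 1 pool left out. The 6 lower ones became 11 with arrays centred on their medians, and 3 to 8 with 1 pool left out. The median of the members stayed below 0 throughout, and was -0.25 to -0.043 with 1 pool left out. Same-numbered pools did not deviate together (correlations of -0.084, -0.0088 and -0.24). Deviations from the mean of 3 pools sum to 0 within a group, so these values cannot decide whether the pools were paired. Correlations of the other pairs ran from -0.14 (Stat3Δ/Δ pool 2 with control pool 1) to 0.19 (Stat3Δ/Δ pool 3 with control pool 1). Stat3Δ/Δ pools 1 and 2 gave 0.13 and 0.14 with control pool 3, whose leading title number they share. With the replicate block the counts were 2 higher and 4 lower, and the median was -0.14. The sign changed in at least 1 alternative for 7 named probe sets, all of them small differences outside the unadjusted limits. Over the 3 arrays whose titles start with the same number, and with the leading number as a fixed block in the fit, Cldn18 1449428_at gave 0.18, Dsc2 1426911_at 0.79, Jup 0.32 and Pkp2 1449799_s_at 0.18; control pool 3 is the lone control there and is assumed to vary like the other arrays. Dsc2 gave 0.23 without a pseudocount and 0.11 without normalization, and Tjp1 gave -0.039 with arrays centred on their medians. With 1 pool left out, Cldn18 ranged from -0.13 to 0.17, Cldn7 from -0.36 to 0.18, F11r from -0.058 to 0.0023, Dsc2 from -0.52 to 0.43, Jup from -0.43 to 0.10 and Pkp2 from -0.12 to 0.062. The 9 probe sets within the limits kept their sign in all 155 values run for them, and stayed within the limits in 102. They had been picked by p and fold from these same arrays. Changes of filter, variance model, test, replicate block or probe set choice leave the fold change identical to the main fit. The sign could not change in those, so the count of 155 is no support for the direction. Of these 9, Cldn10, Marveld3 1444809_at and Dsp 1427610_at stayed within them with any 1 pool left out. The cause of these changes was not tested.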
